A study of Mus musculus with 4 samples.

Results

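Closed stretches are the longest runs of the mouse autosomes in which T-helper 17 (Th17) cells had no open region common to all replicates. ATAC-seq, where a transposase cuts and tags accessible DNA, was run on primary Th17 cells of strain C57BL/6NJ. There was 1 group of 4 biological replicates with the same donor identifier in the labels; sex was not collected, age is given as unknown, and the cells' culture conditions are not used here. The deposited list of each replicate has 1 row per peak call on build mm10. On chromosomes 1 to 19 replicates 1 to 4 had 82067, 83316, 83466 and 82340 rows, and overlapping rows (1 bp or more) merged into 98793 regions, of which 67267 held a row from all 4 replicates and are called shared. The members are the 658 gaps of 500 kb or more between neighbouring shared regions, out of 67248 gaps in all (0.978%). None had to be left out for having over 50% unknown bases; the highest share was 22.0%, and 29 members had any. Members were chosen by the positions of peak calls in these same 4 lists, so the scarcity of rows inside them is a description and not a finding. Closed means only that no region was shared by all 4: all but 200 members had a row in at least 1 replicate. The lists hold no read counts, so depth is unknown, and the spread between replicates may be technical.

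Most of a differentiated cell's genome lies in nucleosome-packed chromatin that a transposase rarely enters. Genes of other tissues tend to sit there either as very long neuronal genes in gene-poor DNA (gene deserts) or as dense clusters of duplicated genes such as odorant receptors. Gene promoters fall into CpG-rich ones, often open in many cell types, and CpG-poor ones, usually open only where the gene is used.

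Both arrangements can be read in promoter sequence. The first 3 promoters below belong to long genes of closed stretches and are CpG-rich, and the last pair belongs to chemosensory receptor clusters and is CpG-poor; each runs from 250 bp before to 50 bp after the RefSeq start (GRCm38.p6, mm10 coordinates), 5′ to 3′ on the gene's strand, with every CpG in capitals. Cdh8 (type II cadherin) is at chr8:99416422-99416721 on the minus strand, Adgrl3 (latrophilin 3) at chr5:81020321-81020620 on the plus strand, and Epha5 (an ephrin receptor) at chr5:84417333-84417632 on the minus strand. Olfr1000 (an odorant receptor) is at chr2:85608859-85609158 and Vmn1r58 (a vomeronasal receptor) at chr7:5413096-5413395, both on the minus strand. In the Olfr1000 window the last 50 bp open with the letters atg, so its RefSeq start may be that of the coding sequence. That window may then not be the gene's promoter, and its CpG count describes only the letters shown.
Cdh8: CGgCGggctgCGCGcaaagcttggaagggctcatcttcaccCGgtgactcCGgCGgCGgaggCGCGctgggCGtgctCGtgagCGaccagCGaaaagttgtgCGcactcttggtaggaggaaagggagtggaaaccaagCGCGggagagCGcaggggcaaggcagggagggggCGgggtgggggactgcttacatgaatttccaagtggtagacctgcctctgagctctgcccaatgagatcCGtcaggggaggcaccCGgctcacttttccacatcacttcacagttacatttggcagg
Adgrl3: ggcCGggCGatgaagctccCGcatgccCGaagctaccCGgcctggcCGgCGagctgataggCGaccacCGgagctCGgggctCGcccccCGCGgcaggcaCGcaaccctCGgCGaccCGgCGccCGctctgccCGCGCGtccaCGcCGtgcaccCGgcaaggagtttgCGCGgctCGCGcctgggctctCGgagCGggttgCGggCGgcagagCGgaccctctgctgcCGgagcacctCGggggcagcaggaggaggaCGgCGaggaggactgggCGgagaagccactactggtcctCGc
Epha5: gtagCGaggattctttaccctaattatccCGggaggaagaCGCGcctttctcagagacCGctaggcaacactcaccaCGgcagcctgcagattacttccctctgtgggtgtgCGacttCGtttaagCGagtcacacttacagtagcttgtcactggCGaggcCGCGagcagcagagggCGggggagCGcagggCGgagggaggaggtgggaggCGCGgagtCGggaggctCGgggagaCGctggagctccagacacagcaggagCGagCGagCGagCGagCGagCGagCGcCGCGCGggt
Olfr1000: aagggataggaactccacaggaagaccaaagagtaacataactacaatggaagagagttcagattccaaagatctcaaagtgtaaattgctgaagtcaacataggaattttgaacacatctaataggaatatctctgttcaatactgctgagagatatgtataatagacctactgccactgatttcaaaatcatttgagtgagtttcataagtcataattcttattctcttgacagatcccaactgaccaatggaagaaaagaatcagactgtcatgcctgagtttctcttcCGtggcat
Vmn1r58: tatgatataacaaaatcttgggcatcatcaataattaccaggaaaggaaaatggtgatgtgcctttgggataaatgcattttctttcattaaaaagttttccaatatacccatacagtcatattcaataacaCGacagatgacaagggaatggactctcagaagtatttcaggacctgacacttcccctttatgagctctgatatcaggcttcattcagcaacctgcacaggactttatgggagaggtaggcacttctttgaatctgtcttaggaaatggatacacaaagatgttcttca
The windows hold 21 CpGs in Cdh8, 40 in Adgrl3 and 30 in Epha5, against 1 each in Olfr1000 and Vmn1r58. GC content is 62.3%, 75.3% and 64.3% in the first 3, and 37% and 38% in the receptor pair. By symbol, 2040 of the 2824 protein-coding genes inside members matched the RefSeq promoters.

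A second set of sequences comes from the shared regions that stand alone between long closed stretches. The 201 bp around the strongest summit are shown for 4 of them, from the plus strand of mm10, with matches to the AP-1 string TGANTCA (searched on both strands) in capitals. Each is named by the nearest protein-coding start, which can be far away. They are Cdh10 at chr15:18821428-18821628, Dach1 at chr14:97357060-97357260, Lrrc4c at chr2:95442278-95442478 and Otol1 at chr3:70807253-70807453. The regions' offsets from those starts, negative when before the start, are 2581, 812605, -875791 and 799740 bp. Only the first lies within the gene it is named by.
Cdh10: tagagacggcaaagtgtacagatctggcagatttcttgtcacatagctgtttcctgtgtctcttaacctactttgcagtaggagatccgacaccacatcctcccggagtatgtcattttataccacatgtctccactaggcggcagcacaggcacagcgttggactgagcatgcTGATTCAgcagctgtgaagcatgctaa
Dach1: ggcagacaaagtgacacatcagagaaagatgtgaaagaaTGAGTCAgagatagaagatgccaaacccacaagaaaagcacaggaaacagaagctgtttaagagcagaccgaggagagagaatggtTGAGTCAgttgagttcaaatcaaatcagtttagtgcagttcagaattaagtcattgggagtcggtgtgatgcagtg
Lrrc4c: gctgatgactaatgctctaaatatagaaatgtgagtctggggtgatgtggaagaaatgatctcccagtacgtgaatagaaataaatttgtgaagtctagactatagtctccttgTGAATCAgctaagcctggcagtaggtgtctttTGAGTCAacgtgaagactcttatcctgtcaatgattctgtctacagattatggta
Otol1: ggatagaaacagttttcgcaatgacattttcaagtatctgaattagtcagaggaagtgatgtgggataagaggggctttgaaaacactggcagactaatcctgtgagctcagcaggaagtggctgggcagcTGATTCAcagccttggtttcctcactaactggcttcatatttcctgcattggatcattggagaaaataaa
AP-1 proteins (Fos, Jun and Batf dimers) are activation-induced factors of T cells. The N in the string stands for any base. The matches shown are TGAGTCA in Dach1, TGATTCA in Cdh10 and Otol1, and TGAATCA and TGAGTCA in Lrrc4c. These forms were not counted apart. The string was present in 20230 of all 67267 shared regions (30.1%), so a match is a description of the letters and not evidence of binding.

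The members covered 953.5 Mb, or 38.7% of the 2463 Mb of chromosomes 1 to 19. Their median length was 1.03 Mb, the quartiles were 0.695 and 1.71 Mb, and the range was 500.1 kb to 9.79 Mb. Long ones carried most of the sequence: 336 members of 1 Mb or more made up 724.4 Mb, 131 of 2 Mb or more made up 436.7 Mb, and 13 of 5 Mb or more made up 87.2 Mb. The limit of 500 kb cut a smooth distribution, with the 5 shortest members at 500.1 to 501.9 kb and the 5 longest gaps that missed it at 496.4 to 498.6 kb. The closed share varied between chromosomes. It was 46.6% of chromosome 3 and 46.5% of chromosome 4, the highest, and 27.8% of chromosome 9, 28.0% of chromosome 11 and 23.4% of chromosome 19, the lowest.

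**Figure D1:**
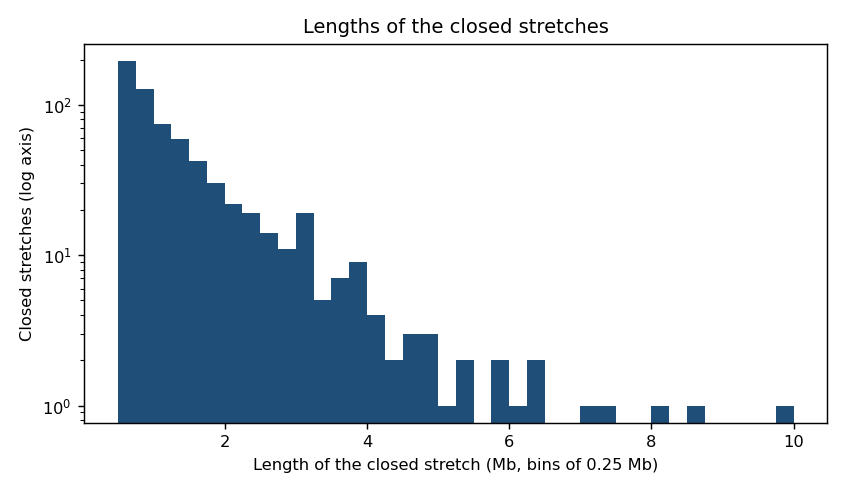
Lengths of the 658 closed stretches in Mb (bins of 0.25 Mb) against their number on a log axis. Counts fall steadily from the limit of 0.5 Mb, and the longest stretch is 9.79 Mb.

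The longest closed stretch, chr14:87568529-97356949, held 4 protein-coding genes and not a single row in any of the 4 replicates over 9.79 Mb. They are Pcdh20 and Pcdh9 (protocadherins, adhesion proteins of neurons), Klhl1 (a neuronal actin-binding kelch protein) and 4921530L21Rik. The second longest, chr6:73369041-81923406 (8.55 Mb), also had no row in any replicate. It held 12 protein-coding genes: the neuronal catenin Ctnna2 with the synaptic organiser Lrrtm1 nested in it, Lrrtm4, 6 Reg genes for secreted lectins of gut and pancreas (Reg1, Reg2, Reg3a, Reg3b, Reg3d and Reg3g), 4931417E11Rik, Gm9008 and Gm20594. The third longest, chr5:77531268-85768826 (8.24 Mb), had 1 row, in replicate 3, and held Adgrl3, Epha5 and Tecrl. The fourth longest, chr8:96553102-103953178 (7.40 Mb), held the cadherins Cdh8 and Cdh11 and had 2 rows each in replicates 2 and 3 and none in replicates 1 and 4. The fifth longest, chr4:75452212-82509938 (7.06 Mb), held Ptprd (a synaptic receptor phosphatase), Tyrp1 (a pigment enzyme), Lurap1l and Mpdz, with 0, 1, 2 and 3 rows in replicates 1 to 4.

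The other 5 of the 10 longest lay on chromosomes 1, 2 and 15. On chromosome 1, chr1:111865354-118294203 (6.43 Mb, no row) held Cntnap5a and 7 genes with only Gm or Rik names, and chr1:24749735-30792677 (6.04 Mb, with 2, 2, 0 and 2 rows) held Adgrb3 and 2 such genes. On chromosome 15 a pair of members faced each other across a single shared region in Cdh10: chr15:13027958-18820307 (5.79 Mb, no row) held Cdh6 and Cdh9, and chr15:18821777-25082451 (6.26 Mb, with 0, 1, 2 and 0 rows) held Cdh12, Cdh18 and Acot10. The tenth longest, chr2:95442609-101208474 (5.77 Mb, no row), held Lrrc4c, whose product is a postsynaptic netrin-G ligand, and 2 such genes. Of these 10 members, 5 had no row in any replicate. Over all 658, 200 (30.4%, 285.2 Mb) had none.

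Of 20807 protein-coding genes on chromosomes 1 to 19, 2824 lay wholly inside a member (percent called 13.6), and of 51229 annotated genes of any kind 11744 did (percent called 22.9). That is 2.96 protein-coding genes per Mb in closed stretches and 11.9 per Mb elsewhere. Since a shared region at a gene ends a stretch, the rule itself favours genes without one. Genes were unevenly spread over members: 238 (36.2%) held no protein-coding gene, 155 held 1, 198 held 2 to 9, and 67 held 10 or more and together 1985 of the 2824. Only 7 members held no annotated gene of any kind. A further 461 protein-coding genes overlapped a member in part.

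The share of genes inside was highest in the shortest and the longest length classes. The genes' median length was 7.13 kb, against 19.7 kb for the other protein-coding genes. By length class, 1718 of 7287 genes under 10 kb lay inside (23.6%), 810 of 11148 of 10 to 100 kb (7.27%), 229 of 2154 of 100 to 500 kb (10.6%) and 67 of 218 of 500 kb or more (30.7%). A long gene has more bases in which a shared region would exclude it. Among the longest wholly inside were Ptprd (2271 kb), the lipoprotein receptor relative Lrp1b (2058 kb), the complement-domain protein Csmd1 (1643 kb) and Pcdh15 of hair cells (1550 kb), with Naaladl2, Lrrc4c, Lingo2, Cntn5 and Tenm2 also above 1 Mb (1229 to 1346 kb). Other long genes were inside except for a part. Erbb4, a neuregulin receptor, had 99.9% of its bases in a single member, Ptprt had 99.8% and Lsamp had 99.5%.

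Cadherins are calcium-dependent adhesion proteins that sort neurons and other cells by type. A list of 15 cadherins (type II members with Cdh2, Cdh4 and Cdh13) had 10 genes inside members (66.7%, beside 13.6% of all protein-coding genes): Cdh2, Cdh6, Cdh7, Cdh8, Cdh9, Cdh11, Cdh12, Cdh18, Cdh19 and Cdh20. None of the 10 had a row of any replicate within 1 kb of its start. Their stretches were long, from 3.21 Mb for Cdh20 to 7.40 Mb for Cdh8 and Cdh11. Of the other 5, Cdh4, Cdh22 and Cdh24 had a row of each replicate at the start, while Cdh10 and Cdh13 had none there. Of 9 protocadherins outside the gene clusters on these chromosomes, Pcdh9, Pcdh15, Pcdh18 and Pcdh20 lay inside with no row at the start. Pcdh1, Pcdh7, Pcdh8, Pcdh10 and Pcdh17 did not, and each had a row of all 4 replicates at the start. The clustered protocadherins of the alpha and beta groups shared a member of 0.840 Mb with 37 protein-coding genes in all on chromosome 18, and are among 40 of 67 protocadherin genes inside (59.7%).

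A list of 38 synaptic adhesion genes had 24 inside (63.2%), 22 of them with no row of any replicate at the start. They include the neuroligin Nlgn1, the contactins Cntn3, Cntn5 and Cntn6, the teneurins Tenm2 and Tenm3, Slitrk1, Slitrk3 and Slitrk6, and the neighbours Opcml and Ntm, which shared a member of 3.10 Mb. The exceptions at the start were Negr1, with a row in 1 replicate, and Csmd3, with rows of 4. Csmd3 starts next to the shared region that bounds its stretch of 3.92 Mb. Neurotransmitter receptors were also found inside. Of 16 GABA-A receptor subunits 9 were inside. They sat in 3 members; Gabra2, Gabra4 and Gabrg1 shared a member, and Gabra5 and Gabrg3 shared another. Of 27 glutamate receptor genes 9 were inside, each in a member of its own, and of 92 potassium channel genes 13 (14.1%), a share near that of all protein-coding genes.

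Chemosensory receptors made up 1115 of the 2824 genes inside (39.5%). Odorant receptors (Olfr), which olfactory neurons express singly from large clusters, had 818 of 1128 genes inside (72.5%) in 22 members. Vomeronasal receptors of the type 1 family had 181 of 208 inside (87.0%), the type 2 family 90 of 119 (75.6%), and bitter taste receptors (Tas2r) 26 of 35 (74.3%). None of the 15 trace amine receptors, which form a compact cluster, was inside. Without odorant, vomeronasal and bitter taste receptors, 1709 of 19317 protein-coding genes remained inside (8.85%). The member richest in genes, chr2:85224879-90443635 (5.22 Mb), held 234 protein-coding genes, 227 of them Olfr, and had 1, 3, 3 and 2 rows in replicates 1 to 4. The Olfr cluster of chromosome 9, chr9:38734457-40191683 (1.46 Mb, 54 Olfr of 56 genes), had no row in any replicate. Nor had the cluster of chr17:37271412-39845999, with 40 Olfr of 51 genes. The member chr7:19957366-24081609 (4.12 Mb) held 105 genes, 65 of them Vmn1r, with 3 rows, and 63.5% of its bases were repeat-masked. Whether reads could be placed there as well as elsewhere was not tested.

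Families of secreted, barrier and liver proteins were inside in the same block-like way. All 25 prolactin-family genes, most of them made by the placenta, were inside, and all 11 Skint genes, whose founder Skint1 selects skin gamma delta T cells in the thymus, shared a member of 2.40 Mb. Major urinary proteins had 21 of 22 inside, all in 1 member with 17.4% unknown bases. A limit of 10% unknown bases leaves that member out. Defensins had 42 of 66 inside, serpins (protease inhibitors) 30 of 60 and cytochromes P450 48 of 100. Organic anion transporters (Slco) had 9 of 14 and keratin-associated proteins 24 of 57, whereas none of 53 keratins was inside. A member of 1.28 Mb on chromosome 3 held 52 genes of the epidermal differentiation complex, such as Ivl, Sprr1a and the Lce genes, with 2, 1, 2 and 2 rows.

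**Figure D2:**
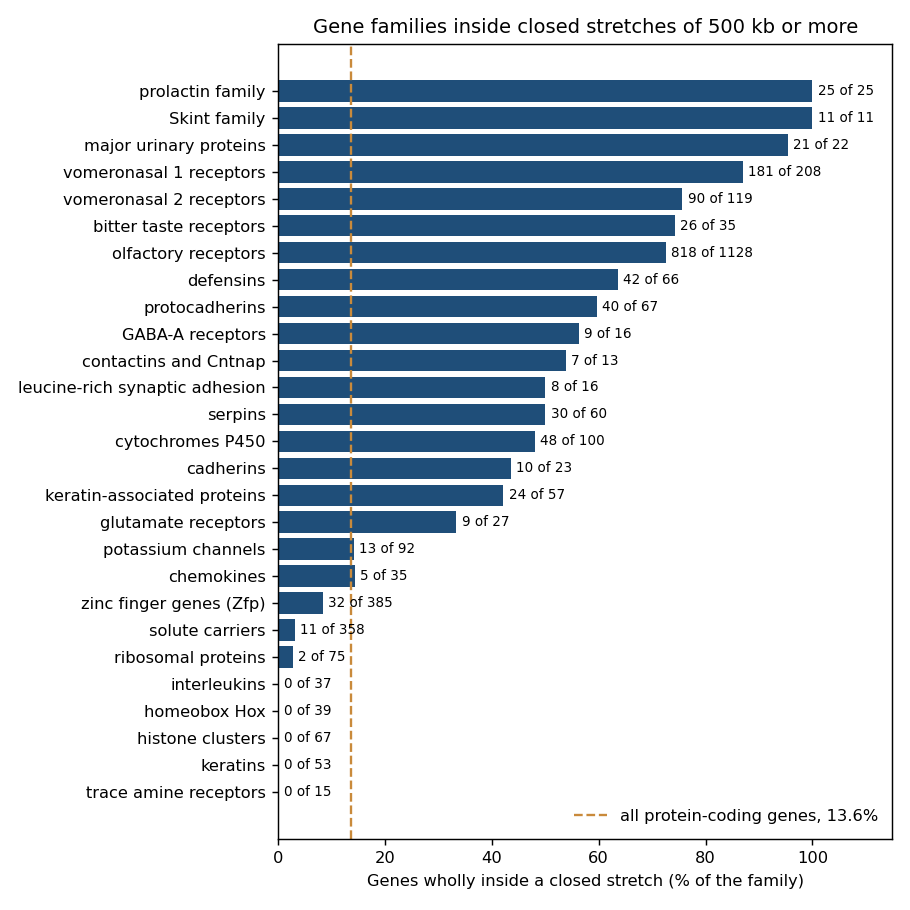
Share of each gene family's protein-coding genes (chromosomes 1 to 19) that lay wholly inside a closed stretch, with counts beside the bars and all protein-coding genes (13.6%) as a dashed line. Prolactin, Skint and major urinary protein genes were nearly all inside, and histone, Hox, interleukin and keratin genes not at all.

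Other families had few or no genes inside. No gene of 67 in the histone clusters, 39 Hox genes or 37 interleukin genes lay inside a member, nor any of 13 housekeeping genes. Ribosomal protein genes had 2 of 75 inside, the testis-expressed paralogues Rpl10l and Rpl39l, solute carriers 11 of 358 (3.07%) and Zfp zinc finger genes 32 of 385 (8.31%), the last a share near the 8.85% of all protein-coding genes without the chemosensory receptors. Chemokines had 5 of 35 inside (14.3%), a share near the 13.6% of all protein-coding genes: Ccl19, Ccl21a, Ccl21b and Ccl27b in a member of 1.14 Mb on chromosome 4, and Cxcl13 in a member of 2.64 Mb on chromosome 5.

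Marker lists were read in 2 ways, as genes inside members and as starts with rows. Of 15 T-cell genes such as Cd3e, Cd4 and Lck, none was inside and 13 had a row of every replicate within 1 kb of the start. Of 14 Th17 genes such as Il17a, Il17f and Il23r, none was inside and 12 had such rows; the others were Il22, with no row, and Rora, with rows of 3 replicates. Of 9 B-cell genes none was inside and 2 had rows of all 4. Of 9 myeloid genes Adgre1 (F4/80 of macrophages) was inside, and 3 had starts with rows of all 4. Of 10 hepatocyte genes Cyp3a11, Serpina1a and Ttr were inside, and none of the 10 had a start with rows of all 4. Of 14 neuron genes Grin2a, Grin2b, Nefl, Nefm and Syt1 were inside, while 6 had starts with rows of all 4 replicates, Snap25 and Tubb3 among them. Of 10 muscle genes Myf5 was inside, of 10 epithelial genes none was, and 3 genes of each list had starts with rows of all 4. A list of 45 regulators of development near gene deserts had 8 inside (17.8%), beside 13.6% of all protein-coding genes. Of the 45, 29 had starts with rows of all 4 replicates. The 8 inside include the morphogens Shh and Bmp4 and the transcription regulators Gli3, Irx1, Pou3f3, Sox11 and Zfpm2. Shh, Sox11, Irx1, Bmp4 and Zfpm2 had no row at the start, Gli3 had a row in 2 replicates and Pou3f3 in 3.

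CpG-rich promoters were seldom inside. A promoter counts as CpG-rich here when the 300 bp around the annotated start have a ratio of observed to expected CpG of at least 0.6 and a GC content of at least 50%. This held for 42.6% of all protein-coding genes. Of 8868 CpG-rich promoters, 159 belonged to genes inside (1.79%), against 2665 of 11939 CpG-poor ones (22.3%). The 2665 include all 1115 odorant, vomeronasal and bitter taste receptor genes inside, none of them CpG-rich. A shared region within a gene also keeps that gene out of a member, so both shares reflect the rule in part. The 159 became 105 when any row of any replicate ended a stretch, and 243 when only the strongest 50000 rows of each replicate were used. Put the other way, 5.63% of the genes inside were CpG-rich and 48.4% of the other genes. The 159 were spread over 133 members. The highest ratios among them were 1.15 for the kinase Prkd1, 1.14 for the scaffold protein Mpdz, 1.134 for the vesicle protein Cadps2, 1.11 for Bicc1 and 1.09 for Zkscan2, followed by Fam19a5, Sfrp1 and Shisa6. Lrrtm1 (1.09, GC 48.3%) and Tfap2b (1.25, GC 38.7%) had high ratios but missed the GC limit. No odorant receptor, type 2 vomeronasal or defensin gene was CpG-rich, inside or outside; 4 of the 10 cadherins inside were.

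Antigen receptor segments lay partly inside. Of 108 variable segments of the T-cell receptor alpha locus (Trav), 87 were in chr14:52811030-53794720, a member of 0.984 Mb with no gene annotated as protein-coding, while none of the 22 Trbv segments of the beta locus was inside. Immunoglobulin light chain variable segments, which B cells rearrange, had 99 of 100 Igkv inside chr6:67573287-70709181 (3.14 Mb, with 2, 1, 1 and 2 rows) and all 3 Iglv inside. Heavy chain segments had 20 of 113 Ighv inside chr12:115328758-115868701, with 3, 4, 2 and 4 rows. The imprinted Prader-Willi region, chr7:59229779-63462355 (4.23 Mb), was a member with 8 rows. It held Snrpn, Snurf, Ndn, Magel2, Mkrn3 and Peg12, and 211 of the 1442 annotated small nucleolar RNAs.

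Pseudogenes gathered in members too. Unprocessed pseudogenes, which arise by duplication in place, had 1146 of 1789 inside (64.1%), and processed ones, which are inserted copies of messenger RNAs, 3337 of 8924 (37.4%). Long intergenic RNAs had 1255 of 5209 inside (24.1%), near the 22.9% of all annotated genes. Antisense RNAs had 283 of 2913 (9.72%), and RNAs from bidirectional promoters 4 of 190 (2.11%). Among unprocessed pseudogenes, 66 were in chr7:13322208-15912127 and 60 in the Olfr member of chromosome 2.

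Base composition, which the rule did not use, differed by gap length. Pooled GC content was 39.1% in the members, against 42.0% in the 2032 gaps of 100 to 500 kb, 43.9% in gaps of 10 to 100 kb and 45.2% in gaps under 10 kb; chromosomes 1 to 19 as a whole had 41.9%. CpG density ran the same way, at 6.01 per kb in members and 8.06, 9.72 and 10.9 per kb in the shorter classes. Repeat-masked sequence ran the other way, at 39.02% in members and 32.9%, 29.8% and 27.3% in the shorter classes. Among members, median GC was 39.3% with a range of 35.9 to 51.1%, and the repeat share ranged from 16.6 to 64.8%. The richest in GC, chr4:139859002-140530701 (51.1%), held Klhdc7a and Igsf21. The poorest, chr14:97357621-98167893 (35.9%), lies directly beyond the longest member and held no protein-coding gene wholly. Dach1 (chr14:97786853-98169765, minus strand) overlaps it with all but the end that holds its start, where 4 replicates had a row. Longer members were poorer in GC (Spearman's rho -0.42 across 658 members) and somewhat richer in repeats (rho 0.26); both are descriptions, since neighbouring members share chromosomal composition.

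Composition changed over short distances at the edges. In bins of 25 kb over 1316 edges, GC content was 40.9% in the first bin inside and 39.9% at 225 to 250 kb inside, against 41.6% in the last bin outside and 41.2% in the bin before it. Repeats were 34.1% in the first bin inside and 37.5% at 225 to 250 kb, against 30.2% in the last bin outside. Protein-coding starts were 3.65 per Mb in the first bin inside, against 18.8 per Mb in the last bin outside and 8.57 per Mb in the bin before it. The last bin outside includes the shared region that ends the stretch, and outside bins can reach into a neighbouring member.

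**Figure D3:**
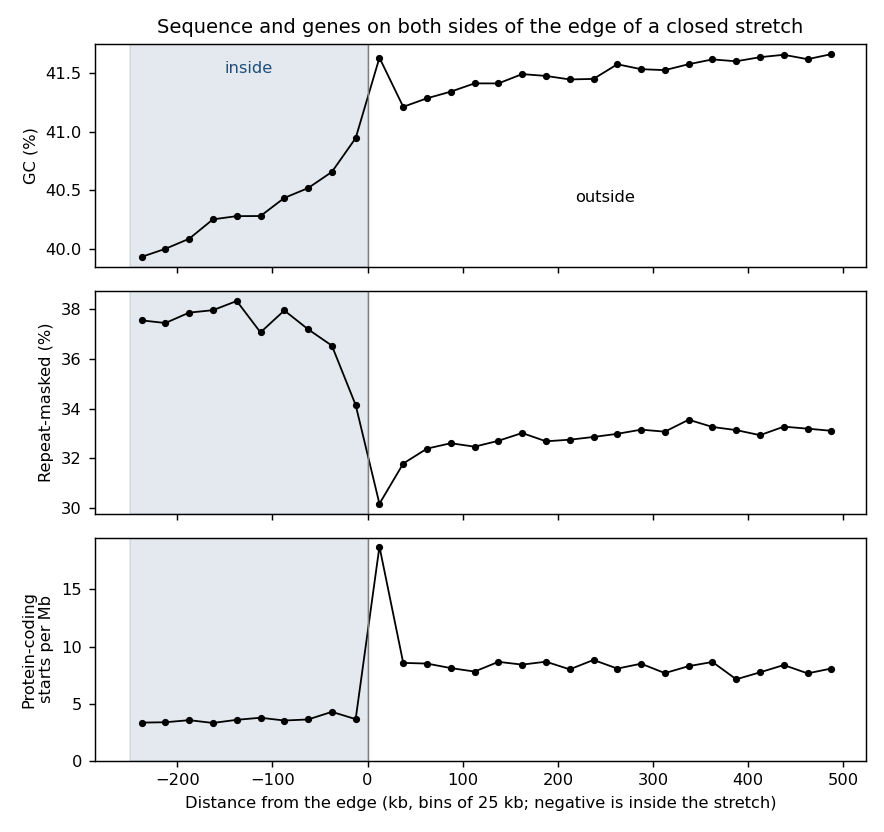
GC content, repeat-masked share and protein-coding gene starts per Mb by distance from the edge of a closed stretch, in bins of 25 kb averaged over up to 1316 edges; the shaded side, left of 0, is inside. GC falls from the edge inwards, and gene starts drop to 3.65 per Mb in the first bin inside, against 18.8 per Mb in the last bin outside.

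Rows that were not shared by all 4 replicates did fall inside members. Replicates 1 to 4 had 355, 451, 500 and 427 rows inside (433 ± 60.4, SD, n = 4), or 0.523% ± 0.069 of their rows. Replicate 1 had the fewest and replicate 3 the most. In replicates 1 to 4, 411, 351, 342 and 357 members had no row. They can be set beside the unshared rows outside the members. Density was 0.372, 0.473, 0.524 and 0.448 per Mb inside in replicates 1 to 4, against 8.51, 9.14, 9.86 and 9.00 per Mb outside. The median deposited signal of those inside was 3.46, 3.64, 3.22 and 3.40, against 3.19, 3.34, 3.06 and 3.20 for those outside. The signal inside was the higher in all 4 replicates. Since 4 replicates are too few for an exact sign test to call, none was made. The rows' deposited significance (−log10 q) did not differ in this way. Its median was 5.84, 6.32, 5.93 and 6.13 inside in replicates 1 to 4, against 6.15, 6.32, 5.93 and 5.81 outside. Median widths were 297 ± 11.6 bp inside and 299.5 ± 9.33 bp outside (SD, n = 4). Merged across replicates there were 975 such regions inside, of which 47.6% came from 1 replicate, 27.7% from 2 and 24.7% from 3. Outside there were 30551, with 46.6%, 27.0% and 26.4%.

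A replicate that took no part in the choice also had few rows there. Stretches were found by the same rule from the other 3 replicates, giving 652 to 659 stretches of 944.6 to 948.1 Mb, and the rows of the left-out replicate were counted. Replicates 1 to 4 had 453, 569, 649 and 575 rows in them, or 0.479, 0.6002, 0.685 and 0.609 per Mb, against 53.8, 54.6, 54.7 and 53.9 per Mb in the rest of the chromosomes. The ratio was 0.0109 ± 0.0015 (SD, n = 4), and the densities in the stretches and in the rest did not overlap. Each replicate taken alone gave 641, 646, 639 and 641 gaps of 500 kb or more, with 908.3, 902.3, 900.3 and 907.2 Mb. Of the members' 953.5 Mb, 94.4 to 95.3% lay in the gaps of any single replicate. Each replicate took part in choosing the members, so this last share is a description and not independent agreement.

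**Figure D4:**
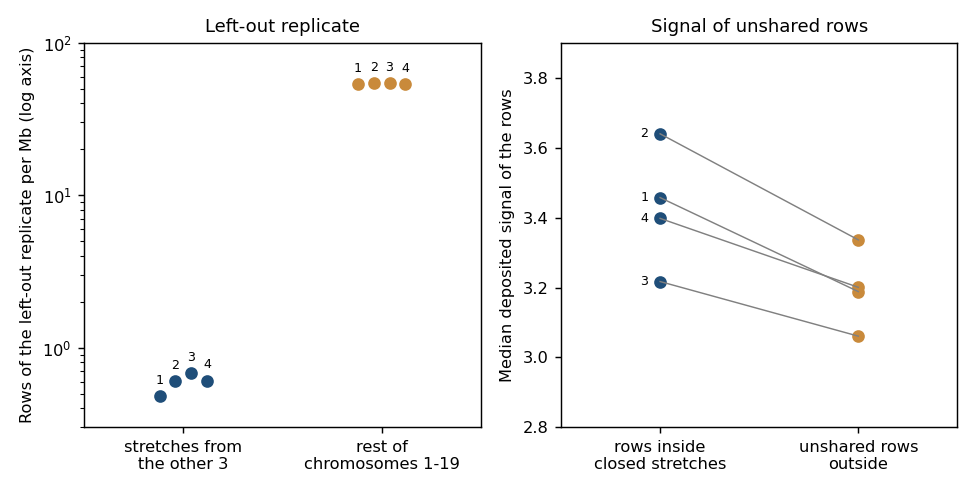
Left, rows per Mb of each left-out replicate (points, numbered) in closed stretches found from the other 3 and in the rest of chromosomes 1 to 19, on a log axis: 0.479 to 0.685 against 53.8 to 54.7. Right, median deposited signal of unshared rows inside and outside the members, with lines joining the values of a replicate; the axis does not start at 0.

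The strongest unshared row inside a member was in the T-cell receptor alpha stretch. At chr14:53039092-53040317 the deposited signal was 15.0 in replicate 3 and 14.7 in replicate 4, and replicates 1 and 2 had no row there. Replicates 3 and 4 share the tag KS136 in their row names, and replicates 1 and 2 the tag KS134; what the tags stand for is not explained in the labels. A second region of this stretch, chr14:53132519-53132842, was also found in replicates 3 and 4 alone (3.57 and 3.82), and another, chr14:53345683-53346050, in replicates 1 and 2 alone (3.75 and 5.76). The stretch had 3, 2, 6 and 5 rows in replicates 1 to 4, in 8 merged regions. Across all members, regions found in exactly 2 replicates were 65 for replicates 3 and 4 and 51 for replicates 1 and 2, against 34 to 47 for the 4 pairs that mix tags. Further strong rows lay in 3 of 4 replicates: in the defensin stretch of chromosome 8 (11.8, 9.82 and 9.20 in replicates 2, 3 and 4), in Gria4 (10.6, 8.80 and 8.64 in the same replicates), in Tmem200a (9.86, 8.93 and 9.20 in the same), and next to Fam205c (9.94, 9.40 and 7.64 in replicates 1, 2 and 4). The members with the most rows were chr15:86474784-88715984 around Fam19a5 (2, 4, 5 and 6 rows), the Trav member (16 in all) and the Grin2b member chr6:135451060-136413452 (3, 1, 6 and 4 rows).

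Some of the shared regions next to a member were promoters. Of the 1210 that bound 1 or 2 members, 295 had a summit within 1 kb of a protein-coding start (24.4%), against 10481 of the 66057 other shared regions (15.9%). Of the 106 with a member on both sides, 37 did (34.9%). Their signal was ordinary: the median percentile among a replicate's shared regions was 56.0, 56.0, 56.2 and 56.7 in replicates 1 to 4 for the bounding regions, against 49.94, 49.96, 49.92 and 49.81 for the others. The AP-1 string TGANTCA was within 100 bp of the summit in 31.9% of bounding regions and 30.0% of the others. The core string CCACNAGGG of CTCF, an insulator protein, was there as an exact match in 1.90% and 2.20% (both strands searched). Sites that differ from the string in a base are not counted.

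The most isolated shared region was in Cdh10 at chr15:18820308-18821776, with 12.1 Mb of closed DNA around it and a signal of 8.79, 8.68, 10.1 and 10.4 in replicates 1 to 4. It lies 2581 bp downstream of the annotated start of Cdh10, and its window shown above holds 1 AP-1 string. The region between the longest member and the GC-poorest, chr14:97356950-97357620, had 17.4, 16.5, 13.5 and 16.7, a percentile of 95.8 ± 3.81 (SD, n = 4), and holds 2 AP-1 strings. It is 812605 bp from the start of Dach1, the nearest protein-coding start. Several others were promoters of neuronal genes. The region 87 bp before the start of Pcdh10, between members of 3.61 and 4.93 Mb, had 5.33, 6.67, 6.65 and 6.48. That at Pcdh17 had 10.2, 11.2, 9.91 and 9.14, that at Ncam2 (a neural adhesion molecule) 4.61, 4.25, 3.83 and 3.82, and that at Nova1 (a neuronal splicing factor) 8.64, 5.46, 6.89 and 4.95. The promoter of the zinc finger gene Zik1, between vomeronasal receptor members on chromosome 7, was strong in every replicate, at 15.4, 16.6, 15.6 and 16.0. Of the 10 most isolated regions, those named by Cdh10, Dach1, Lrrc4c, Fscb and Otol1 hold the AP-1 string. The 5 at promoters do not. Those named by Cdh10, Fscb and Otol1 hold it only as TGATTCA. The region named by Fscb lies 1370821 bp from that gene's start. None of the 10 holds an exact CTCF string. The Cdh10 window holds ccactaggc, which differs from CCACNAGGG only in its last base.

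**Figure D5:**
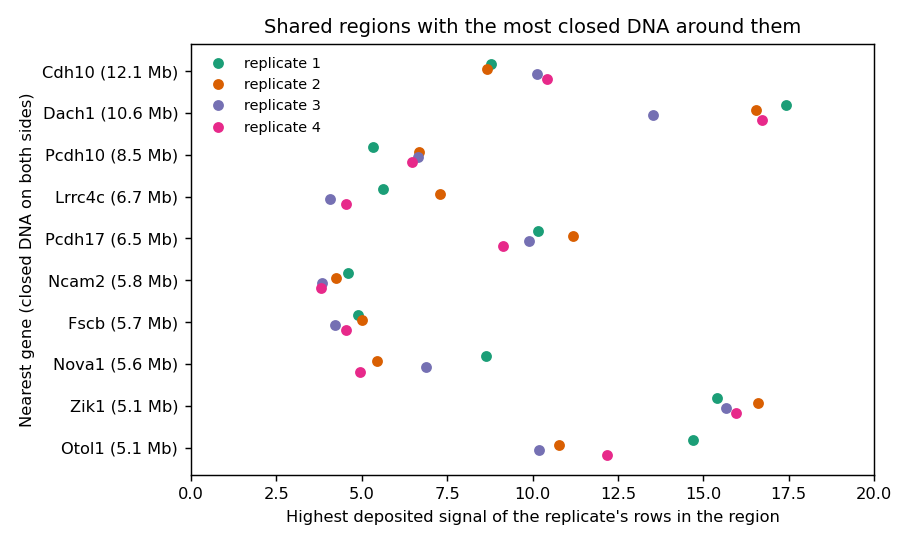
Deposited signal in each replicate of the 10 shared regions with the most closed DNA on both sides, named by the nearest gene with the closed DNA in Mb in brackets. The regions named by Dach1 and Zik1 lie above 13 in all 4 replicates, and those named by Ncam2 and Fscb at 5.00 or lower.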

How the data were processed

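The 4 peak lists, 1 per replicate, were used. Per the labels they refer to mm10. Words in the row names mark masked, deduplicated and sorted reads. The row names also hold the words ASTARR.insert, which the labels do not explain. Neither an aligner nor a peak caller is named in the sources used here. The deposited signal is the peak's enrichment as the authors' caller gave it and was not normalised between replicates. Each deposited row also has a −log10 p and a −log10 q. The second was used only for a stricter setting and for the medians of unshared rows. The deposited display score, capped at 1000, was not analysed.

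Rows on chromosomes 1 to 19 were merged at 1 bp of overlap, and gaps of 500 kb or more between regions with rows from all 4 replicates were kept, with Python 3.11.15, numpy 2.4.6 and pandas 2.3.3; figures used matplotlib 3.10.9. The merging and gap steps were tested on simulated lists. Genes came from GENCODE M21 on GRCm38.p6, and GC, CpG and soft-masked repeats from the same assembly's RefSeq sequence, which is of strain C57BL/6J. A gene is inside when it lies wholly in a member. Motif strings were searched within 100 bp of the summit on both strands. An isolated region's summit is that of its strongest row. Symbol patterns define families, so a family can hold near-identical copies.

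Named genes are those of the 10 longest members, the gene-richest members, the longest genes inside, the partly inside genes with the most bases in a single member, the highest promoter CpG ratios, list members inside, and the nearest genes of strong rows and bounding regions. A few genes that this rule names are not reported here. The members and lists were chosen with earlier results of these data known, and the motif strings after the files had been seen. There is 1 group, so no comparison was tested, and counts are set beside those over all genes; a replicate far from the other 3 was looked for with Dixon's test. Other settings tried were 1 to 3 replicates in place of 4, −log10 q of at least 10, the strongest 50000 rows, limits of 250 kb and 1 Mb, at most 10% or no limit of unknown bases, other definitions of a gene inside or of a CpG-rich promoter, and leaving out each replicate. Read counts were not used, so precision is the spread between replicates.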

Additional observations from a re-analysis of the deposited data

Results flagged for a closer look

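Of 36 quantities with a value in each of the 4 replicates, 2 had a replicate that stood apart from the other 3 (beyond Dixon's critical value); chance flags about 1 in 20 groups. The signal of the shared region at Pcdh10, which separates closed stretches of 3.61 and 4.93 Mb, was lowest in replicate 1, at 5.33, against 6.48 to 6.67 in the others. The number of listed cadherins inside gaps of 500 kb or more found from a single replicate was 10 for replicate 1, while replicates 2, 3 and 4 gave 9. When 3 counts are equal any other value is flagged, so this flag does not measure a distance. The chance rate above does not apply to it. The causes were not tested.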

How the results depend on the processing

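The number of closed stretches was 1118 at 250 kb and 336 at 1 Mb, and 628 to 674 under the other settings, against 658. Their total length was 928.3, 896.2 and 855.5 Mb when regions of at least 3, at least 2 or any replicates ended a stretch, 1007 Mb with −log10 q of at least 10, 1029 Mb with the strongest 50000 rows, 1115 Mb at 250 kb, 724.4 Mb at 1 Mb, 939.1 Mb with at most 10% unknown bases, and 944.6 to 948.1 Mb without a replicate. The odorant receptor share inside was 71.0% (at least 2), 69.2% (any), 76.3% (−log10 q), 77.0% (strongest rows), 80.6% (250 kb) and 58.2% (1 Mb). Median GC was 39.27, 39.20 and 39.04% (at least 3, at least 2, any), 39.48% (−log10 q), 39.56% (strongest rows), 39.997% (250 kb), 38.65% (1 Mb) and 39.30 to 39.32% without a replicate. CpG-rich promoters inside were 105 with any row and 243 with the strongest rows. The ratio of left-out density was 0.0142 at 250 kb, 0.00873 at 1 Mb and 0.00567 for rows with −log10 q of at least 10. Between 89.7 and 99.8% of the members' bases stayed closed when the regions that end a stretch were redefined. Fewer rows give longer gaps by construction; no other cause was tested. No paired analysis was possible because there is 1 group. Without counts, shallow reads and closed DNA cannot be told apart at a single locus.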
